A study of Salmo salar with 189 samples.

Results

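The saccus vasculosus (SV) and the gill of Atlantic salmon were compared between fish that received their morning light and fish that were left in darkness at the same hours. All SV and gill samples labelled CT1 and CT5 were taken, which gave 24 of the 189 samples of the series, 12 per tissue. Circadian time (CT) counts hours from the lights-on of the preceding cycle, so these samples stand 1 h and 5 h after the time at which light was due. In each tissue 6 samples labelled LL, from fish with names starting with A, were set against 6 labelled DD, from fish with names starting with B, with 3 fish at each time. The SV and gill samples came from the same 12 fish.

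The study followed clock gene transcripts through a light-dark cycle and into constant light (LL) or constant darkness (DD) in both these tissues and the optic tectum (OT). The fish were pre-smolt juveniles of about 45 g, raised under constant light from hatching and then held on a short light phase for 8 weeks. The labels give that cycle as 8 h of light and 16 h of dark, whereas the methods give a shorter light phase. All fish were fasted and kept at 14 °C, and samples in darkness were taken under dim red light. At CT1 and CT5 the fish labelled LL were under the light that their cycle would have given them, and the methods also count these samples as the last of the cycle. The DD fish had not seen light since the previous light phase. The 2 light conditions were run as separate arms and the fish had been divided between a pair of tanks beforehand, so light and tank cannot be told apart. The probe set holds clock genes only, so the tissue labels could not be checked against markers.

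The vertebrate clock is a feedback loop. Clock and Arntl1 (Bmal1) proteins pair to activate transcription, and the period and cryptochrome proteins they induce act back on them as repressors. In a second loop the Rev-erb receptors (Nr1d1, Nr1d2) repress, and the ROR receptors activate, genes that include Arntl1, and the PAR bZIP factors Tef, Hlf and Dbp carry the rhythm to other genes. Salmonids retain many of these genes as duplicates from a genome duplication of their own, here named by gene and chromosome. The gill exchanges gas and ions with the water, and the SV is an organ under the hypothalamus of many fish that has been proposed to sense day length. In zebrafish, peripheral tissues respond to light directly, and several clock genes there are induced by it.

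Each transcript was counted by a barcoded probe against a target of 100 bases, and each duplicate had a target of its own. Over 17 duplicate pairs the longest run of bases shared by both targets was between 5 and 11 bases (median 6). The run of 11 was that of Tef-Ch3 and Tef-Ch6. These runs compare target with target, and how closely a target matches the RNA of the other copy was not tested. The first 30 bases of the targets behind the main differences are shown, as the part of each RNA that the measurement rests on, 5′ to 3′ in lower case. The genes lie on chromosomes 4, 11, 7, 10, 28, 5 and 6 of the RefSeq annotation of Ssal_v3.1, in the order shown, and that of Per1-Ch6 is the only one of the 7 that differs from the number in its name.
Per1-Ch4: tgttcagcgtgtgtattacttgtcttgcag
Per1-Ch11: cacaacccgtcacaggtaaatcctgcatta
Per1-Ch6: ctgtaacgttcccaacaaggttaagaggaa
Clock-Ch10: agcagtattgagactatgcctctgaggcta
Hlf-Ch28: tactttaaaacctctcccaagcctacatac
Nr1d2-Ch5: caacacaatgcacaaagtacagaccgtctc
Tef-Ch6: acagattgagggctgcaccgccgtgatcgt

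Values are barcode counts normalised to spiked-in control RNAs, called signal here. Differences were taken as DD minus LL on the log2(signal + 1) scale, averaged over CT1 and CT5, and tested with limma at an adjusted p of 0.05. The SV had 38 tested transcripts, the gill had 40, and both tissues shared 36 of them. The total signal was 8964 to 13550 in the SV and 7824 to 9540 in the gill. In the SV it moved with the light condition, with a median of 13079 in LL and 11203 in DD. The step between possible values of an SV sample, of which all its values were whole multiples within 0.0061 units of signal, was 0.77 to 1.00 in LL and 0.89 to 1.59 in DD, and its part in the results was not tested. These are bulk samples, in which fewer cells of a type and less RNA per cell cannot be told apart.

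In the SV 3 of the 5 Rev-erb transcripts and the Tef-Ch3 and Tef-Ch6 pair were lower in fish without morning light, together with Per1-Ch11 and Cry3-Ch22. These were 7 of 38 transcripts (18.4%), all lower in DD, and 0 passed the test in the other direction. The median difference over all 38 was -0.13 and 29 lay below zero. When samples were brought to a common geometric mean over the tested transcripts, called scaling from here on, that median was 0.04. This left Nr1d2-Ch5 and Tef-Ch6 past the threshold as lower and added Hlf-Ch28 and Rora-Ch26-1 as higher. The adjusted p-values of all differences in the SV rest on 1 spread that limma estimated for all transcripts, so each has a standard error (SE) of 0.16.

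Nr1d2 encodes Rev-erb beta, a nuclear receptor that represses transcription. Nr1d2-Ch5 read 528, 489 and 408 at CT1 and 500, 447 and 548 at CT5 in LL, against 297, 360 and 259 at CT1 and 256, 299 and 216 at CT5 in DD. Every DD fish lay below every LL fish, which held for 1 of 38 transcripts (2.63%). The level in DD was 0.575 of that in LL, a difference of -0.80 (95% CI -1.12 to -0.48, adjusted p = 5e-05). Its duplicate Nr1d2-Ch2 ranged from 462 to 636 in LL (median 572) and from 305 to 510 in DD (median 357). The ranges overlapped through the DD fish B2 and B6, and the mean difference was -0.55 (adjusted p = 0.0076). After scaling it was -0.37 (adjusted p = 0.10).

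The third Rev-erb transcript to fall was Nr1d1-Ch6, from the gene for Rev-erb alpha, which was read near the lower end of the scale. It stood at 22.0 to 40.1 in LL (median 28.8) and at 16.6 to 25.1 in DD (median 20.1), a difference of -0.52 (adjusted p = 0.011). Of the 5 Rev-erb transcripts tested, 3 passed as lower, against 7 of 38 over all SV transcripts. The median difference of the 5 was -0.52, or -0.35 after scaling. The remaining members, Nr1d2-Ch27 and Nr1d2-Ch14, differed by -0.25 (adjusted p = 0.33) and 0.16 (adjusted p = 0.57).

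Tef is an activator of the PAR bZIP family, and its Ch3 and Ch6 copies are duplicates of each other. Tef-Ch6 read 352, 303 and 296 at CT1 and 343, 195 and 300 at CT5 in LL, and in DD 165, 228 and 165 followed by 126, 189 and 182. Only the LL fish A30, at 195, fell among the DD values. The level in DD was 0.592 of that in LL, a difference of -0.76 (95% CI -1.07 to -0.44, adjusted p = 8.4e-05). Tef-Ch3 was between 197 and 420 in LL (median 364) and between 212 and 267 in DD (median 221), where A30 was again the lowest LL fish. Its difference was -0.57 (adjusted p = 0.0061), or -0.39 after scaling (adjusted p = 0.16).

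The other Tef pair did not pass, at -0.36 for Tef-Ch28 (adjusted p = 0.12) and -0.14 for Tef-Ch1 (adjusted p = 0.63). Among the 8 PAR bZIP transcripts 2 passed as lower, near the share of 7 of 38 over all SV transcripts. The median was -0.19, or -0.01 after scaling. Hlf-Ch28 was 1 of the 2 PAR bZIP transcripts above zero, at 135 to 237 in LL (median 188) and 175 to 294 in DD (median 240). Its difference was 0.34 (adjusted p = 0.13), and 0.52 after scaling (adjusted p = 0.032). The other was Dbp-Ch5-1, at 0.02 (adjusted p = 0.96).

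**Figure D1:**
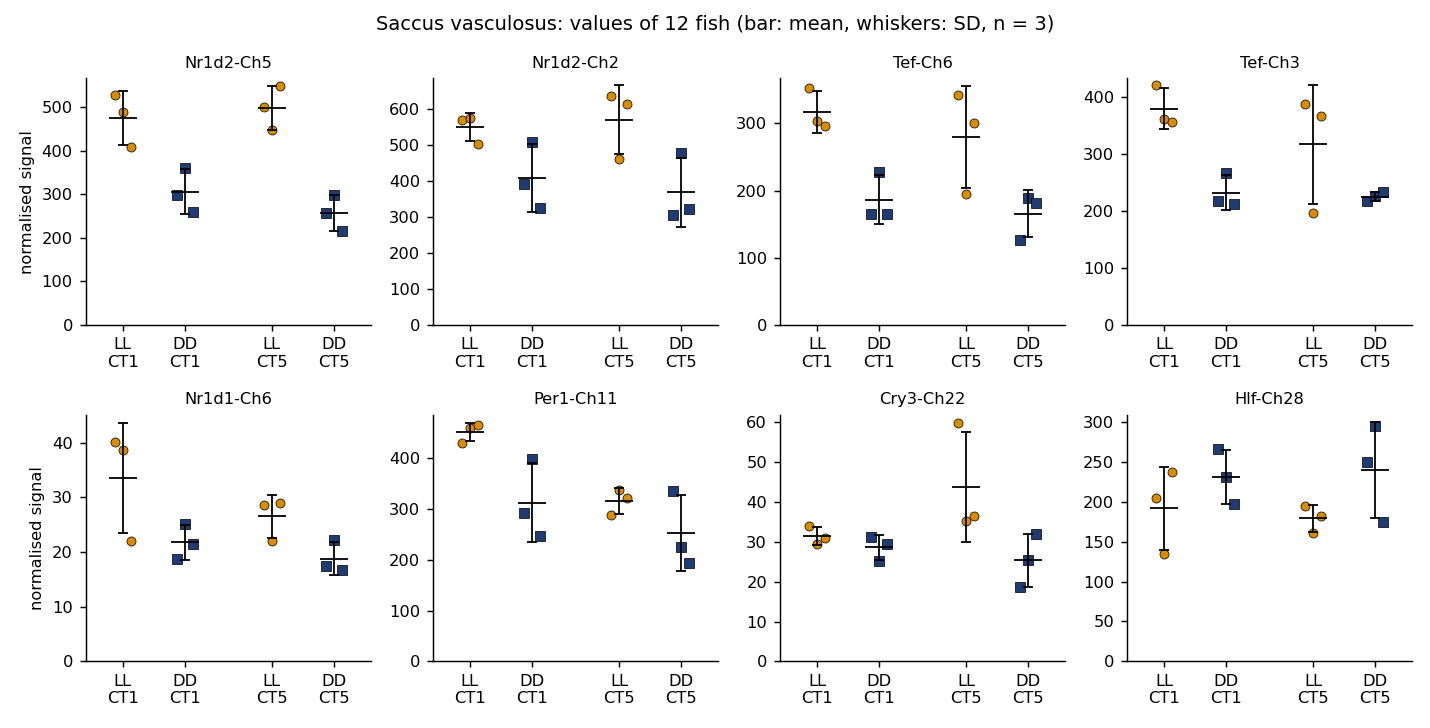
Normalised signal (vertical axes, linear and starting at 0) of 8 transcripts in the SV, by light condition and circadian time. Circles are LL fish and squares DD fish, and bars and whiskers give the mean and SD of 3 fish. The squares of Nr1d2-Ch5 all lie below its circles, and a single LL fish at CT5 falls among the squares for Tef-Ch6 and below them for Tef-Ch3.

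The period genes, whose proteins repress Clock and Arntl1, gave 1 lower transcript of 5 in the SV, near the overall share of 7 of 38. Per1-Ch11 read 430, 459 and 465 at CT1 and 288, 338 and 322 at CT5 in LL, and in DD 292, 398 and 247 followed by 336, 226 and 194. The DD fish lay below the LL fish at CT1 but not at CT5, and the mean difference was -0.46 (adjusted p = 0.030). Such a separation at CT1 only was also seen in transcripts that did not pass, among them Tef-Ch1, Hlf-Ch1 and CKId-Ch28. Per1-Ch4, the duplicate of Per1-Ch11, covered 440 to 620 in LL (median 570) and 441 to 643 in DD (median 573). The groups overlapped fully and the difference was 0.01 (95% CI -0.31 to 0.33, adjusted p = 0.99).

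Per2-Ch3 was the period transcript next to the threshold, with 301 to 517 in LL (median 426) and 251 to 393 in DD (median 304). The difference was -0.40 (adjusted p = 0.067). Its duplicate Per2-Ch14 was lower in signal, with means of 58.9 in LL and 52.3 in DD and a difference of -0.13 (adjusted p = 0.67). The median over the 5 period transcripts was -0.13, and 0.05 after scaling.

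Of 7 cryptochrome transcripts 1 passed, near the overall share of 7 of 38. This was Cry3-Ch22, at 29.4 to 59.8 in LL (median 34.6) and 18.7 to 31.9 in DD (median 27.5). The difference was -0.44 (adjusted p = 0.034), and at CT1 it was -0.13 against -0.76 at CT5, where A29 held the highest LL value. With its low level it no longer passed when the spread was allowed to follow the mean level, as was also the case for Nr1d1-Ch6. Its duplicate Cry3-Ch12 had means of 39.2 in LL and 36.7 in DD (difference -0.11, adjusted p = 0.67). The cryptochrome median was -0.11, and 0.07 after scaling.

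No activator, ROR, Ciart or casein kinase transcript passed in the SV. The median was -0.11 over 6 activators and -0.19 over 2 casein kinases, whose enzymes phosphorylate period proteins. After scaling these medians were 0.07 and -0.01. Arntl1-Ch10 had the largest difference among the activators, with 81.4 to 142 in LL and 74.8 to 117 in DD (-0.32, adjusted p = 0.16). Arntl1-Ch16, its duplicate, differed by -0.11 (adjusted p = 0.67). The 4 ROR transcripts had a median of 0.06, and Rora-Ch26-1 among them, named after its values were seen, differed by 0.25 (adjusted p = 0.33) before scaling and 0.43 after it (adjusted p = 0.0058).

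The SV calls differed in how far they rested on single fish. Nr1d2-Ch5, Nr1d2-Ch2, Tef-Ch3 and Tef-Ch6 passed with any 1 of the 12 fish left out, with a highest adjusted p of 0.044 (Nr1d2-Ch2). Nr1d2-Ch2 and Tef-Ch3 were lost when A31 and B7, the lowest SV totals of their arms, were both omitted. With all SV samples in the fit only Nr1d2-Ch5 and Tef-Ch6 passed. Nr1d1-Ch6 was lost without A25, A26 or B1 (highest adjusted p = 0.085). Per1-Ch11 was lost without A25, A26, A28, A30, B1, B3, B6 or B7 (highest adjusted p = 0.12), and Cry3-Ch22 without A25, A26, A28, A29, B1, B2, B5 or B6 (highest adjusted p = 0.18). The count of 7 fell to 4 without A25, A26 or B1. In the exact permutation test within time points, Nr1d2-Ch5 and Tef-Ch6 reached p = 0.005, the smallest it can give, and 0 transcripts passed after adjustment (9 had an unadjusted p below 0.05). That smallest p became 0.095 after adjustment, so neither could pass unless more transcripts shared it.

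In the gill none of those 7 transcripts passed, and those that did were all higher without morning light. Clock-Ch10, Per1-Ch4 and Per1-Ch6 rose, which is 3 of 40 transcripts (7.5%), and 0 fell. These same 3 were the transcripts whose DD fish all lay above all LL fish (7.5%). The median difference over all 40 was 0.08, and 0.02 after scaling, under which the same 3 transcripts passed.

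Clock encodes the partner of Arntl1 in the activating pair. Clock-Ch10 read 30.4, 28.1 and 25.6 at CT1 and 31.8, 34.6 and 30.0 at CT5 in LL, and in DD 49.2, 49.8 and 38.4 followed by 73.4, 51.0 and 59.0. The highest LL fish stood below the lowest DD fish at both times. The level in DD was 1.73 times that in LL, a difference of 0.79 ± 0.11 (SE, 95% CI 0.55 to 1.03, adjusted p = 0.00069). Its duplicate Clock-Ch23 was more abundant by signal, with 155 to 225 in LL (median 208) and 208 to 301 in DD (median 243). It differed by 0.33 ± 0.11 (SE, adjusted p = 0.13). Its groups were separate at CT5 only, as were those of Dbp-Ch14 and Arntl1-Ch10, which did not pass either.

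Per1-Ch4 read 134, 121 and 131 at CT1 and 107, 72.6 and 106 at CT5 in LL, and in DD 158, 192 and 200 followed by 184, 210 and 189. No DD fish overlapped the LL fish. The level in DD was 1.71 times that in LL, a difference of 0.77 ± 0.11 (SE, 95% CI 0.52 to 1.02, adjusted p = 0.00069). Per1-Ch6, a further copy of the gene that has no values in the SV, covered 43.1 to 58.8 in LL (median 49.5) and 59.6 to 89.0 in DD (median 67.2). Its groups were separated by less than 1 unit of signal between A30 and B3, and the difference was 0.47 ± 0.11 (SE, adjusted p = 0.024).

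Per1-Ch11, which fell in the SV, was at 111 to 157 in LL (median 127) and 121 to 187 in DD (median 164) in the gill, a difference of 0.29 (adjusted p = 0.16). The period list as a whole had 2 higher transcripts of 6, against 3 of 40 over all gill transcripts. Its median was 0.34, or 0.28 after scaling. Per2-Ch14 and Per2-Ch3 did not pass, at 0.14 (adjusted p = 0.49) and -0.20 (adjusted p = 0.56). Among the 6 activators 1 passed as higher, against the same 3 of 40, and the median was 0.29, or 0.23 after scaling. Arntl1-Ch16, at 61.2 to 103 in LL (median 83.1) and 96.5 to 127 in DD (median 101), differed by 0.37 (adjusted p = 0.13), and Arntl1-Ch10 by 0.24 (adjusted p = 0.20).

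**Figure D2:**
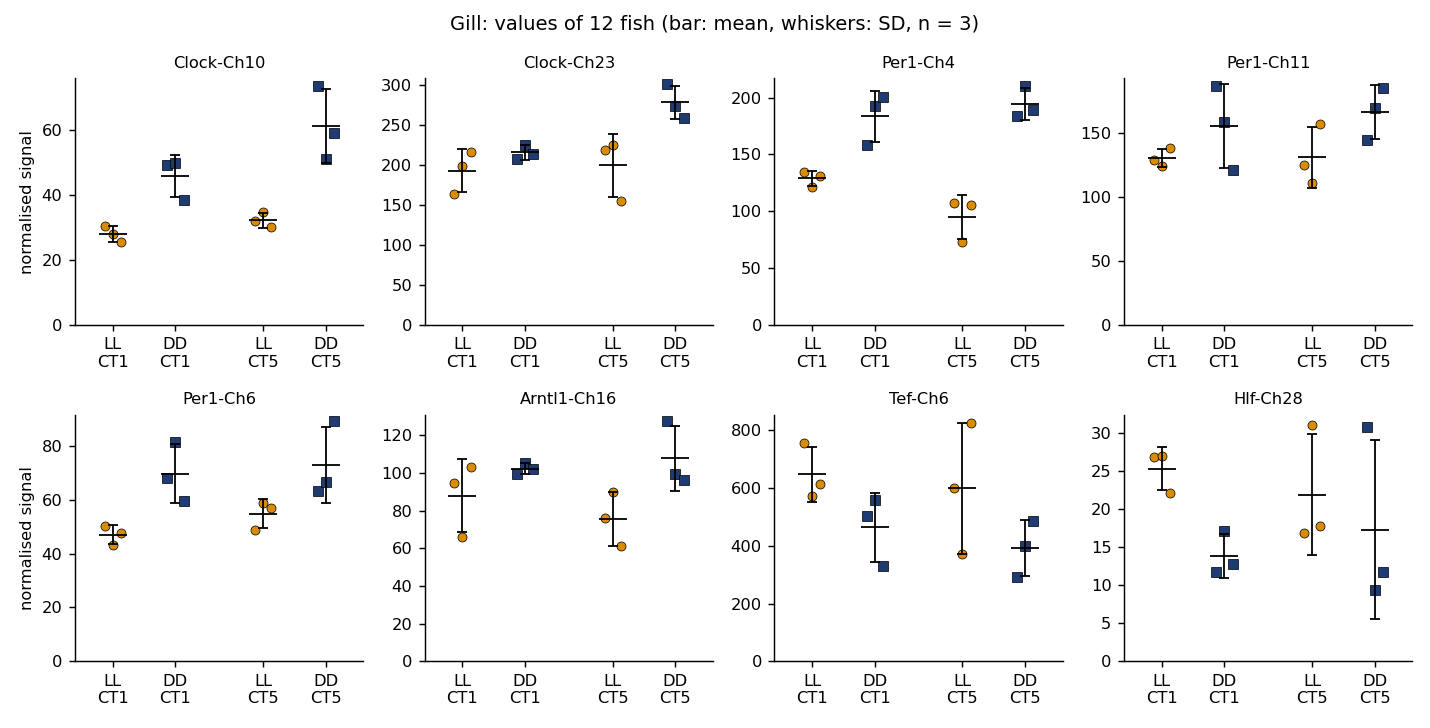
Normalised signal (vertical axes, linear and starting at 0) of 8 transcripts in the gill, by light condition and circadian time. Circles are LL fish and squares DD fish, and bars and whiskers give the mean and SD of 3 fish. The squares lie above all circles for Clock-Ch10, Per1-Ch4 and Per1-Ch6, while Tef-Ch6 and Hlf-Ch28 spread widely in both conditions.

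The transcripts that led in the SV were variable between fish in the gill. Tef-Ch6 was at 372 to 825 in LL (median 607) and 291 to 559 in DD (median 444), a difference of -0.54 ± 0.21 (SE, adjusted p = 0.15). Tef-Ch3 differed by -0.48 ± 0.29 (SE, adjusted p = 0.27), Nr1d2-Ch2 by -0.33 ± 0.22 (SE, adjusted p = 0.30) and Nr1d2-Ch5 by -0.29 ± 0.20 (SE, adjusted p = 0.31). The LL fish A30 was the lowest of its group for all 4 of them, with 293 for Tef-Ch3 and 239 for Nr1d2-Ch2. A30 was also the lowest LL fish for both Tef transcripts and for Nr1d2-Ch2 in the SV. Without A30 the gill count rose from 3 to 9 of 40, with Tef-Ch3, Tef-Ch6 and Nr1d2-Ch2 lower (each adjusted p = 0.040 to 0.045) and Arntl1-Ch16, Clock-Ch23 and Ciart-Ch14 higher (each adjusted p = 0.045 to 0.046).

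Hlf-Ch28 was low in the gill, at 16.9 to 31.1 in LL (median 24.5) and 9.35 to 30.9 in DD (median 12.3). All DD fish but B5 stood below 18, and the difference was -0.64 ± 0.27 (SE, adjusted p = 0.15), or -0.89 without B5 (adjusted p = 0.0073). That was the only 1 of the 12 omissions under which Hlf-Ch28 passed (highest adjusted p = 0.24). Its duplicate Hlf-Ch1 ranged from 69.0 to 239 in LL and from 67.2 to 234 in DD, with a difference of -0.45 (adjusted p = 0.41). Cry3-Ch12 (-0.26, adjusted p = 0.37), Cry3-Ch22 (-0.11, adjusted p = 0.80) and Nr1d1-Ch6 (0.05, adjusted p = 0.92) had mean signals under 26 in both conditions.

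No PAR bZIP, Rev-erb, cryptochrome, ROR or casein kinase transcript passed in the gill. Their medians were -0.21 over 8 PAR bZIP factors, -0.10 over 5 Rev-erb transcripts, 0.02 over 7 cryptochromes (-0.04 after scaling), 0.07 over 4 ROR transcripts and 0.12 over 3 casein kinases. Ciart-Ch14, from a gene whose product represses the Clock and Arntl1 pair, differed by 0.40 (adjusted p = 0.13). Clock-Ch10 and Per1-Ch4 passed with any 1 fish left out (highest adjusted p = 0.0032 for each). Per1-Ch6 was lost without A26, A28, A29, B1 or B2 (highest adjusted p = 0.076), and with all samples of the gill in the fit (adjusted p = 0.20). In the exact permutation test all 3 reached p = 0.005, the smallest it can give, and 0 of 40 passed after adjustment (11 had an unadjusted p below 0.05). The smallest p became 0.067 after adjustment, so none of the 3 could pass unless more transcripts shared it.

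Set side by side before scaling, the tissues differed in direction about as often as they matched. Of the 36 transcripts tested in both, 17 differed in the same direction, 12 of them lower in DD and 5 higher. The directions were opposite for 19, of which 16 were lower in the SV and higher in the gill. After scaling 22 had the same direction and 14 the opposite one, with the scaling applied in both tissues. The same fish gave both tissues, so the count is not one of independent samples.

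The difference between the tissues was itself past the threshold for 4 of 36 transcripts (11.1%), given as the SV difference minus the gill difference. The SEs and p-values of this limma fit do not pair the SV and gill of a fish, and the paired fit is given further below. The exact permutation test of the tissue difference does pair them, since it uses SV minus gill within each fish. Clock-Ch10 differed by -0.90 ± 0.18 (SE, adjusted p = 0.0012), from -0.11 in the SV, where it read 60.8 to 116 in LL and 74.8 to 94.7 in DD, and 0.79 in the gill. Its SV difference was 0.07 after scaling. Per1-Ch4 differed by -0.76 ± 0.18 (SE, adjusted p = 0.0063), with 0.01 in the SV against 0.77 in the gill. Both passed without any 1 of the 12 fish, after scaling (-0.66 and -0.52) and in the exact permutation test (adjusted p = 0.036 each). Clock-Ch10 has a mean signal under 50 in the gill and was not tested when such transcripts were left out.

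Per1-Ch11 differed between the tissues by -0.75 ± 0.21 (SE, adjusted p = 0.018), with opposite signs in the SV (-0.46) and the gill (0.29). It was lost after scaling (-0.51, adjusted p = 0.066) and without A26, A30, B1, B6 or B7 (highest adjusted p = 0.092). Hlf-Ch28 differed in the other direction, by 0.98 ± 0.31 (SE, adjusted p = 0.037), from 0.34 in the SV and -0.64 in the gill. It was lost without A25, A26, A30, B1, B3, B6 or B7 (highest adjusted p = 0.15). Like Clock-Ch10, it was not tested when transcripts with a mean signal under 50 were left out. Neither Per1-Ch11 nor Hlf-Ch28 passed in the exact permutation test (adjusted p = 0.065 each) or with all samples of both tissues in the fit (adjusted p = 0.15 and 0.27). In the exact permutation test 5 transcripts passed, 2 of them shared with the 4, and the others were Arntl1-Ch11, Clock-Ch23 and Nr1d2-Ch5 (adjusted p = 0.036 each). All 5 were at the smallest p that test can give, and they passed because enough transcripts shared it. The count of 4 fell to 2 without A26, A30, B1, B6 or B7 and rose to 7 without A31, the LL fish with the lowest SV total.

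With the fish as a replicate block, which compares SV and gill within each fish, the count was 7 of 36. The 4 transcripts above all passed, and Arntl1-Ch10 (-0.56, adjusted p = 0.044), Arntl1-Ch16 (-0.49, adjusted p = 0.044) and Arntl1-Ch11 (-0.48, adjusted p = 0.046) were added. Each of these 3 Arntl1 transcripts was below zero in the SV and above zero in the gill, except that Arntl1-Ch16 stood at 0.07 in the SV after scaling. Without the block their adjusted p-values were 0.078, 0.12 and 0.078, and after scaling they were 0.23, 0.45 and 0.40. The other Arntl1 transcript, Arntl1-Ch26, lay the other way, at 0.24 in the SV and -0.01 in the gill. Its tissue difference was 0.25 (adjusted p = 0.62, and 0.56 with the block). Of the 7 transcripts that fell in the SV, Per1-Ch11 was the only one whose tissue difference passed in limma. It was -0.51 for Nr1d2-Ch5 (95% CI -1.01 to -0.01, adjusted p = 0.14, and 0.036 in the exact permutation test), -0.22 for Tef-Ch6 (95% CI -0.78 to 0.34, adjusted p = 0.62) and -0.09 for Tef-Ch3 (95% CI -0.76 to 0.58, adjusted p = 0.85).

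**Figure D3:**
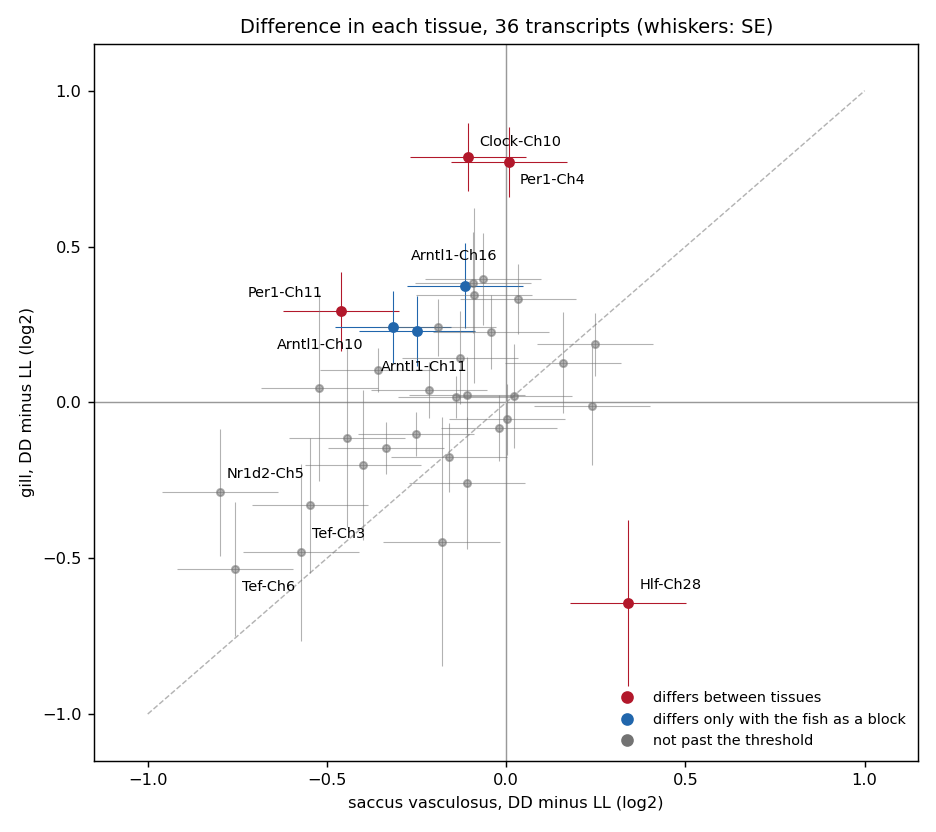
DD minus LL difference (log2) of 36 transcripts in the SV (horizontal axis) and the gill (vertical axis), each the mean over 12 fish with its SE as whiskers. The dashed line marks equal differences. Clock-Ch10 and Per1-Ch4 lie near 0 in the SV and near 0.8 in the gill, Hlf-Ch28 lies alone at the lower right, and Tef-Ch3 and Tef-Ch6 lie at the lower left near the line.

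The difference between DD and LL was compared between CT1 and CT5 in each tissue. With limma 0 of 38 SV transcripts (0%) and 0 of 40 gill transcripts (0%) passed (1 and 2 had an unadjusted p below 0.05). With 3 fish against 3 the differences at each time are given without a test. In the SV Nr1d2-Ch5 stood at -0.64 at CT1 and -0.96 at CT5, and Tef-Ch6 at -0.78 and -0.74. In the gill Per1-Ch4 stood at 0.50 and 1.04, and Clock-Ch10 at 0.68 and 0.89. All of these transcripts had separate groups at each time, as had Per1-Ch6 in the gill. With 3 fish against 3, groups were also separate at a single time for transcripts that did not pass. Examples were Tef-Ch1 in the SV at CT1 and CKIe-Ch6 in the gill at CT5.

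Duplicates were compared by their log2 ratio within a sample, which sample-wide scaling does not change. In the SV 1 of 13 pairs (7.69%) passed, and in the gill 0 of 14 (0%). The ratio of Per1-Ch4 to Per1-Ch11 in the SV was 0.39 to 0.67 in LL and 0.69 to 1.21 in DD, so every DD fish was above every LL fish. The mean rose from 0.52 ± 0.11 to 0.99 ± 0.21 (SD, n = 6 each), a difference of 0.47 (95% CI 0.22 to 0.71, adjusted p = 0.015). It was lost without A26 or B1 (highest adjusted p = 0.053). Among the other SV pairs, groups were separate only for the ratio of Rora-Ch10 to Rora-Ch16, a pair named after its values were seen. That ratio was 1.96 to 2.23 in LL and 2.25 to 2.91 in DD, a difference of 0.34 (adjusted p = 0.073 in limma). Both ratios passed in the exact permutation test (adjusted p = 0.0325 each).

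In the gill the Per1-Ch4 to Per1-Ch11 ratio had means of -0.24 ± 0.28 in LL and 0.24 ± 0.33 in DD (SD, n = 6 each), with overlapping groups. The difference was 0.48 (95% CI 0.13 to 0.82, adjusted p = 0.080). The ratio of Clock-Ch10 to Clock-Ch23 in the gill was -2.66 ± 0.26 in LL and -2.20 ± 0.18 in DD (SD, n = 6 each), a difference of 0.46 (adjusted p = 0.080), against -0.14 in the SV (adjusted p = 0.34). The Hlf-Ch1 to Hlf-Ch28 ratio in the SV differed by -0.52 (adjusted p = 0.055). Ratios of the Tef-Ch3 to Tef-Ch6 pair differed by 0.19 in the SV (95% CI -0.07 to 0.44, adjusted p = 0.19) and by 0.05 in the gill (95% CI -0.19 to 0.30, adjusted p = 0.79).

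**Figure D4:**
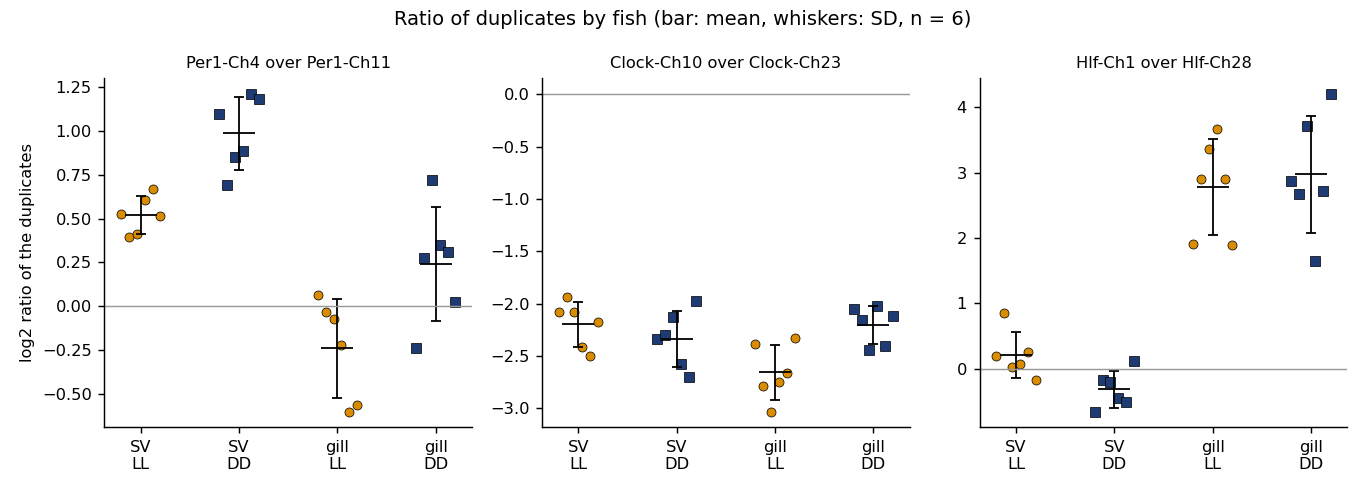
Log2 ratio of the duplicates (vertical axes) of Per1, Clock and Hlf in each of 12 fish per tissue. Circles are LL fish and squares DD fish, with the mean and SD of 6 fish as bars and whiskers. The Per1 ratio in the SV lies between 0.39 and 0.67 in the circles and between 0.69 and 1.21 in the squares.

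The OT of the same 12 fish was read beside both tissues for the leading transcripts. Of its 41 tested transcripts 12 passed as higher in DD and 1 as lower, and 30 differences lay above zero. Clock-Ch10 had means of 497 in LL and 615 in DD there (0.31, adjusted p = 0.042), and Per1-Ch4 means of 465 and 604 (0.38, adjusted p = 0.021). Per1-Ch11 was higher as well (0.40, adjusted p = 0.021). The ratio of Per1-Ch4 to Per1-Ch11 differed by -0.01 in the OT (adjusted p = 0.89). Nr1d2-Ch5 and Tef-Ch6 differed by -0.07 (adjusted p = 0.71) and -0.08 (adjusted p = 0.68) in the OT. Scaling moved the median over the 41 tested OT transcripts from 0.25 to 0.08, and 12 then passed as higher and 5 as lower. After scaling Clock-Ch10 no longer passed (0.14, adjusted p = 0.061), while Per1-Ch4 (0.21) and Per1-Ch11 (0.22) still did (adjusted p = 0.0096 each). Nr1d2-Ch5 passed as lower (-0.24, adjusted p = 0.032), and Tef-Ch6 stood at -0.26 (adjusted p = 0.067).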

How the data were processed

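RNA was counted with a NanoString CodeSet. The authors normalised the barcode counts to spike-in positive controls in nSolver 4.0 before they deposited the values, which are a signal with a lowest value of 1. Background subtraction and a build for the values are not given in the sources used here. Raw counts were not used. In each of the 24 samples every value above 1 lay within 0.0061 units of signal of a whole multiple of a step. Per SV sample the multiples summed to 10385 to 17569 in LL and 6468 to 10926 in DD. Per gill sample the sums were 6786 to 10765 in LL and 6685 to 11060 in DD. These sums were not used as counts in any test, and the part of their difference in the SV results was not tested.

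The column of each sample was taken from its label. Entries were left out that had no probe target or that the study's gene table gives as not expressed in that tissue. The casein kinase entries carry other names in the SV than in the gill, so they were used under the names given. All 12 fish were separate animals. Limma 3.58.1 in R 4.3.3 fitted log2(signal + 1) with 1 mean per light condition and time, over 12 samples per tissue or 24 for the tissue difference. P-values were two-sided and adjusted by the Benjamini-Hochberg method over all transcripts, or pairs, tested. Fold changes on this scale understate the change of low transcripts. For the tissue difference the exact permutation test used SV minus gill values within each fish. It swapped LL and DD within time points (400 ways, smallest p 0.005). A transcript at that p passes the adjustment only if enough others share it. In the SV limma pooled the spread of all transcripts (own SDs of 0.13 to 0.49) into 0.28. Both tests were checked on simulated data.

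Same-named SV and gill samples come from the same fish. Deviations from the group means correlated between a fish's tissues over transcripts by a median of 0.25 (-0.20 to 0.45), above 0.1 in 11 of 12 fish. Fish of a group share its mean, so these 12 values are not independent, and no value for mismatched fish is given beside them. Named are the transcripts past a threshold, the 6 largest differences per tissue, transcripts the study discusses, and their duplicates. The samples, transcripts and lists were chosen with earlier results of these data known. An untested gill entry with low signal is not reported here.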

Additional observations from a re-analysis of the deposited data

Results flagged for a closer look

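The DD minus LL difference differed between the SV and the gill (limma, adjusted p under the threshold) for Clock-Ch10 (-0.90), Per1-Ch4 (-0.76), Per1-Ch11 (-0.75) and Hlf-Ch28 (0.98), each given as SV minus gill on the log2 scale. Their causes were not tested.

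A pair of SV entries hold signal but entered no test. CKId-Ch1 had a median of 59.0 over the 12 SV samples, with 42.1 to 88.0 in LL and 41.6 to 65.2 in DD. CKIe-Ch28 had a median of 934, with 586 to 1003 in LL and 696 to 1018 in DD. Both are casein kinase names without a probe target in the study's list.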

How the results depend on the processing

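Counts of transcripts past the threshold moved as follows. In the SV the 7 became 4 after geometric-mean scaling (2 lower, 2 higher, 2 shared with the 7), 2 with all 63 samples of the tissue in the fit and 0 in the exact permutation test, and 4 to 10 with 1 fish left out. Without A31 and B7 the SV count was 5, of which 3 were shared with the 7. The gill count of 3 became 0 in the exact permutation test and 2 to 9 with 1 fish left out. It was 2 with all samples of the tissue in the fit, with a mean signal of 50 or more, and without A31 and B7. The tissue difference count of 4 became 2 with a mean signal of 50 or more, 2 with all samples in the fit, 7 with the replicate block by fish, 7 when fish A31 and B7 were omitted, and 2 to 7 with 1 fish left out. The counts of 0 between CT1 and CT5 became 0 to 1 in each tissue with 1 fish left out (Rorb-Ch20 in the SV without A29 or B2, Cry3-Ch22 in the gill without A30). The SV pair count of 1 became 2 with a pseudocount of 10, 3 with a mean signal of 50 or more, 2 in the exact permutation test, 0 with all samples in the fit, 2 without A31 and B7, and 0 to 3 with 1 fish left out. The gill pair count of 0 became 1 with a mean signal of 50 or more and 0 to 1 with 1 fish left out. The cause of these moves was not tested. In the exact permutation test the lowest adjusted p was 0.095 in the SV and 0.067 in the gill. Both belong to the smallest p it can give, so its counts of 0 there cannot decide whether those transcripts differ. Of 1059 values of named transcripts and pairs under the alternatives, 964 kept their side of the threshold, 73 lost it and 22 gained it, and no called transcript reversed its direction. The exact permutation test was not run for the comparison of CT1 with CT5. Omitting A31 and B7, the lowest SV totals of their arms, and letting the spread follow the mean level were chosen after the data were seen. The planned count model was not run, since the values are not counts.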
